A study of Mus musculus with 6 samples.

Results

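Rhox5, a homeobox gene of the X chromosome, and 7 genes that write, maintain or remove DNA methylation (Dnmt1, Dnmt3a, Dnmt3b, Uhrf1, Tet1, Tet2 and Tet3) were examined in 6 mouse RNA-seq libraries. The 8 genes were taken by symbol from the 30281 symbols of the transcript table, and their TPM (a length-corrected share of the transcripts of a library) and their estimated counts were summed over all their transcripts. Rhox5 was chosen by its TPM in mouse embryo fibroblasts (MEFs), where it was nearly lost in Tsc2-/- cells, so its difference between the MEF libraries is a description. In Tsc2-/- MEFs, Dnmt1, Uhrf1 and Tet3 lay 3.45- to 3.95-fold above Tsc2+/+ MEFs and Rhox5 was at 0.0564 TPM against 158 TPM, with 1 library for each genotype. In Tsc2-null kidney cells, Tet3 rose 1.30-fold with rapamycin, a call that was lost in 4 of the 8 other fits, and the other 7 genes did not pass the test.

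DNA methylation in mammals is the addition of a methyl group to cytosine, mostly where it is followed by guanine (CG). Dnmt3a and Dnmt3b encode the enzymes that set new methyl marks, Dnmt1 encodes the enzyme that copies marks onto the new strand after DNA replication, and Uhrf1 encodes the protein that binds hemimethylated DNA and brings Dnmt1 to it. Tet1, Tet2 and Tet3 encode dioxygenases that oxidise the methyl group, the first step of active removal. Rhox5 encodes a transcription factor of the reproductive homeobox cluster, known from testis, epididymis, ovary and placenta, and it is a textbook gene whose silencing in most somatic tissue goes with DNA methylation.

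The MEF libraries came from untreated Tsc2-/- p53-/- and Tsc2+/+ p53-/- lines, where Tsc2 encodes a brake on the mTORC1 growth kinase. The other 4 libraries came from MKOC and TJ cells, kidney epithelial lines of C57BL6 mice labelled Tsc2-null, of which TJ was derived from a secondary tumor, and each line was kept in serum-free DMEM with 0.1% BSA and given 100 nM rapamycin, an mTORC1 inhibitor, or diluent for 18 hours. Each library is 1 culture of 1 line, and no library is a repeat of another.

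Libraries held 22887020 to 37505004 estimated counts, and intervals given here cover counting error only. Tsc2 RNA was at 22.6 TPM in Tsc2+/+ MEFs, 10.5 TPM in Tsc2-/- MEFs, 49.1 and 44.0 TPM in untreated MKOC and TJ cells and 19.5 and 19.14 TPM in the treated cells of these lines, so that it was lower with rapamycin in both lines. Trp53 RNA was at 26.3 and 28.5 TPM in the MEFs labelled p53-/-. A transcript level does not check a deletion that leaves the RNA in place. The kidney lines held 101 to 128 TPM of the epithelial cadherin Cdh1 and 395 to 720 TPM of the kidney cadherin Cdh16, while Epcam was at most 0.0268 TPM. The MEFs held 274 and 474 TPM of the fibroblast collagen Col1a1, and 8 of 10 mesothelial markers reached 1 TPM in Tsc2-/- MEFs against 1 of 10 in Tsc2+/+ MEFs, with summed levels of 561 and 2.71 TPM. The share of TPM in transcripts under 300 bases was 20.9% in Tsc2+/+ and 7.12% in Tsc2-/- MEFs.

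The start regions of the members differ widely in CG content, and 7 of them are shown: that of Rhox5, a start rich in CG and one poorer in CG for each of the maintenance genes Dnmt1 and Uhrf1, and 2 starts of Dnmt3a. Each window runs from 250 bases before to 50 bases after a RefSeq start on GRCm38.p6, read 5′ to 3′ on the gene's strand, with every CG in capitals. RefSeq held 13 such windows for all 8 genes. The windows are Rhox5 (chrX:37754358-37754657, plus strand), the CG-rich Dnmt1 start (chr9:20952574-20952873, minus strand) and the Dnmt1 start upstream of it (chr9:20952930-20953229, minus strand), the CG-rich Uhrf1 start (chr17:56304063-56304362, plus strand) and the Uhrf1 start upstream of it (chr17:56303087-56303386, plus strand), the main Dnmt3a start (chr12:3806910-3807209, plus strand) and the internal Dnmt3a start (chr12:3891494-3891793, plus strand).
Rhox5: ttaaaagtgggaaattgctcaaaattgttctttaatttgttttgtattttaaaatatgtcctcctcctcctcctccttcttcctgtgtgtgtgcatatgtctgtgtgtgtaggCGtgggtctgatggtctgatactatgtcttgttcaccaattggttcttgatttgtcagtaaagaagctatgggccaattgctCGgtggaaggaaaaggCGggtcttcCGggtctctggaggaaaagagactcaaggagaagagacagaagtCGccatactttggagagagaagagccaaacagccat
Dnmt1 CG-rich start: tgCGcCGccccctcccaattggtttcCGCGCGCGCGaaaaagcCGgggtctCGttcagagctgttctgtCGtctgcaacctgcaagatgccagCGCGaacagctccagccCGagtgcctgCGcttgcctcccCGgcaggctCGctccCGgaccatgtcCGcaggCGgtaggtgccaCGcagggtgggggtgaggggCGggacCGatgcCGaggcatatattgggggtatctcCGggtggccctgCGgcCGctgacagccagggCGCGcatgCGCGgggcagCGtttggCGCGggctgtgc
Dnmt1 upstream start: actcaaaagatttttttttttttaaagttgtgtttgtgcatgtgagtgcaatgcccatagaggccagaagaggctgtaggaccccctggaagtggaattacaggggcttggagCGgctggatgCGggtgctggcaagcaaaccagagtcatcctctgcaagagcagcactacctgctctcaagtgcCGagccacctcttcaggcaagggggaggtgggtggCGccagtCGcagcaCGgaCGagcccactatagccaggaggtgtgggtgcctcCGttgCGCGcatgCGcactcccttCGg
Uhrf1 CG-rich start: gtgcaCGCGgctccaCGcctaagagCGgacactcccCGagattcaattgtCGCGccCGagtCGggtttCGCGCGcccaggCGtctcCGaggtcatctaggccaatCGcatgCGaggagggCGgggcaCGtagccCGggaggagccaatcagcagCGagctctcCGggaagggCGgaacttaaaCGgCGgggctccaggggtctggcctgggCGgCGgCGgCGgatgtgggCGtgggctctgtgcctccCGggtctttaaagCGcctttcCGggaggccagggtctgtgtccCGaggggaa
Uhrf1 upstream start: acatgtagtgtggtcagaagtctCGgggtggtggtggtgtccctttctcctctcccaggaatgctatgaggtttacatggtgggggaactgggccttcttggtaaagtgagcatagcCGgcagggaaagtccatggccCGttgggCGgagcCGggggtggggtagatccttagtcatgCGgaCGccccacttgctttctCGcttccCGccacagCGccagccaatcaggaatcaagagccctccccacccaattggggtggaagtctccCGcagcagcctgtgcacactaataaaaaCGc
Dnmt3a main start: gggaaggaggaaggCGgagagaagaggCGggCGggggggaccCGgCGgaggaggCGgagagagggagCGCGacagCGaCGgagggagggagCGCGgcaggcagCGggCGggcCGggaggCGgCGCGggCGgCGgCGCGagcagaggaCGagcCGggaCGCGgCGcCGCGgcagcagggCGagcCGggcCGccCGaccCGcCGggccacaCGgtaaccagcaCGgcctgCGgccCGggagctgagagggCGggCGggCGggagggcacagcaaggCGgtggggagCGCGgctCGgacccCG
Dnmt3a internal start: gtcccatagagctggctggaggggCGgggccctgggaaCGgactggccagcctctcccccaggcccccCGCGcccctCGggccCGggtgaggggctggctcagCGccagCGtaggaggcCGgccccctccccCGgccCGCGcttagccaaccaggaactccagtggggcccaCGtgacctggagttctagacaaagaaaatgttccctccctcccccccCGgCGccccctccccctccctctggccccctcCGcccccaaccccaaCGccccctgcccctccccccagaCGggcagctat
The Rhox5 window held 5 CG, and 43.6% of 32851 windows genome-wide held as many or fewer, against a median of 7. The 12 windows of the other members held 2 to 57 CG, with 33 at the CG-rich starts of Dnmt1 and Uhrf1, 12 at the upstream starts shown of both, 2 at a further Dnmt1 start, 47 at the main start of Dnmt3a and 18 at its internal start. In the estimated division of reads among transcripts, the CG-rich starts of Dnmt1 and Uhrf1 carried the smaller share of the counts of both genes. Transcripts that start at the Dnmt1 one held 0.256% to 1.22% and those that start at or just after the Uhrf1 one 21.0% to 37.4%. As reads can fit several transcripts of a gene, these shares do not measure the use of a start. The RefSeq start of Rhox5 lies 50234 bases upstream of the start that the deposited Rhox5 transcripts use (chrX:37804842-37808876), so the window is not the start of the transcripts measured here. The E2F spellings TTTCCCGC, TTTGGCGC, TTTCGCGC and TTTGCCGC, searched on both strands and each holding a CG, were present in 2.26% of all windows and in 2 of the 13 member windows, those of the CG-rich Dnmt1 and Uhrf1 starts, but in none of the windows of their other starts. A match is a description of letters and not a bound site.

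In 5 of 6 libraries Dnmt1 and Uhrf1 were the members with the highest TPM, and Tsc2+/+ MEFs were the exception. There Rhox5 led with 158 TPM (95% Poisson interval 152 to 164), followed by Dnmt1 at 19.11, Uhrf1 at 16.5, Dnmt3a at 9.43 and Tet3 at 6.87. In Tsc2-/- MEFs the order was Dnmt1, Uhrf1, Dnmt3a and Tet3, and Rhox5 came last. In all 4 kidney libraries Uhrf1 led, followed by Dnmt1 and then Tet3. Among the low members several neighbours could not be ordered within counting error, such as Tet2 and Dnmt3b in both MEF libraries, Rhox5 and Tet3 in untreated TJ cells and Tet1 and Dnmt3b in TJ cells with rapamycin.

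**Figure D1:**
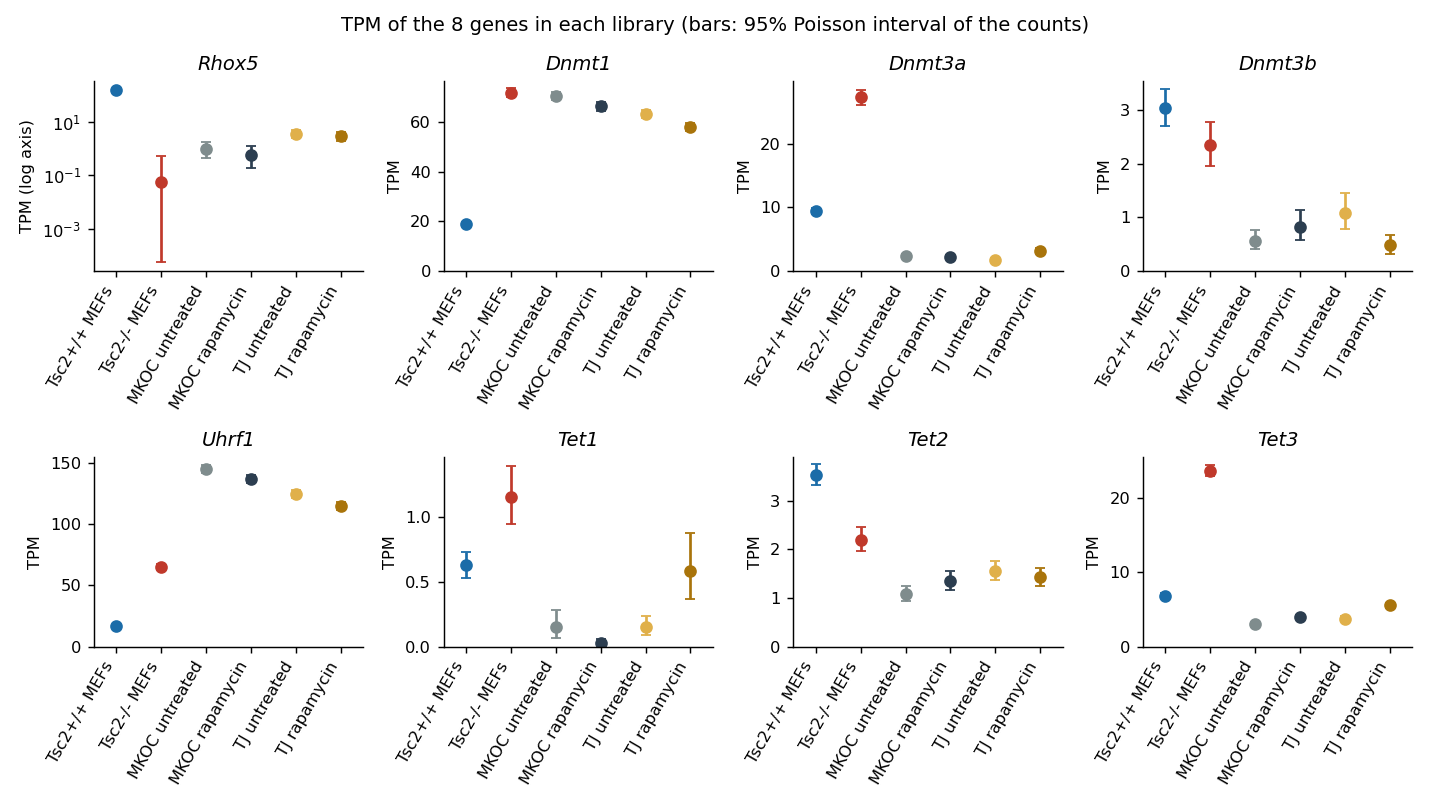
TPM of each of the 8 genes (vertical axis, logarithmic for Rhox5 and linear from 0 for the others) in each of the 6 libraries (horizontal axis), 1 point per library with the 95% Poisson interval of its counts. Rhox5 stands at 158 TPM in Tsc2+/+ MEFs and at most 3.54 TPM elsewhere, while Dnmt1 stands at 19.11 TPM there and at 58.1 to 72.0 TPM elsewhere.

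Rhox5 was high in 1 library. It was at 158 TPM (2774 estimated counts) in Tsc2+/+ MEFs, 0.0564 TPM (0.5 counts) in Tsc2-/- MEFs, 0.943 TPM (10 counts) in untreated and 0.560 TPM (5 counts) in rapamycin-treated MKOC cells, and 3.54 TPM (36.5 counts) and 2.90 TPM (30 counts) in untreated and rapamycin-treated TJ cells. The Tsc2+/+ MEF library lay far above the other 5, and the TJ libraries lay above the MKOC libraries without overlap of their intervals. The Tsc2-/- MEF library held 0.5 counts, or 1 count with the transcript without a symbol described below. The ratio of Tsc2+/+ over Tsc2-/- MEFs was 2797 with a counting interval of 299 to 2.85e+06, and the log2(TPM+1) change was -7.23. The Tsc2-/- level lay below the 0.338 TPM that 3 counts are worth there, and against that value the ratio was 466. A transcript without a symbol, ENSMUST00000185127, held the same values as the Rhox5 transcript ENSMUST00000184866 in all 6 libraries, as where reads that fit both are divided equally. With it, Rhox5 would stand at 315 TPM in Tsc2+/+ and 0.113 TPM in Tsc2-/- MEFs.

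The other genes of the Rhox cluster did not share the high level of Rhox5 in Tsc2+/+ MEFs. The 31 symbols of the cluster other than Rhox5 summed to 0.492 TPM in Tsc2+/+ and 0.448 TPM in Tsc2-/- MEFs, and none reached 1 TPM in either. The 8 Rhox2 copies together held 1 count in Tsc2+/+ MEFs but 0 in the Tsc2-/- library, where a count of 0 has a 95% Poisson upper limit of 3.69 counts. The 6 Rhox3 copies had no counts in any of the 6 libraries.

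Dnmt1 and Uhrf1, the maintenance pair, were both higher in the Tsc2-/- MEF library. Dnmt1 was at 19.11 TPM in Tsc2+/+ and 72.0 TPM in Tsc2-/- MEFs, 3.77-fold higher with a counting interval of 3.61 to 3.94. Uhrf1 was at 16.5 TPM and 65.1 TPM, 3.95-fold higher with an interval of 3.70 to 4.21. The ratio of Uhrf1 to Dnmt1 TPM was 0.863 in Tsc2+/+ MEFs and 0.905 in Tsc2-/- MEFs, against 1.97 to 2.07 in the kidney libraries, so the proportion was close in the libraries of each cell kind.

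The enzymes that set new marks differed from each other. Dnmt3a was at 9.43 TPM in Tsc2+/+ and 27.3 TPM in Tsc2-/- MEFs, 2.90-fold higher with an interval of 2.73 to 3.08. Dnmt3b was at 3.04 and 2.35 TPM, a ratio of 0.773 with an interval of 0.624 to 0.951. The Dnmt3a difference was much smaller per read: its CPM (counts scaled to the library total, without a correction for length) were 58.4 and 83.4, a log2(CPM+1) change of 0.51 against 1.44 on the log2(TPM+1) scale. TPM weighs reads by the length of the transcripts they were assigned to, and CPM does not. Dnmt1 made up 60.5% of the summed TPM of the 3 methyltransferases in Tsc2+/+ MEFs, 70.8% in Tsc2-/- MEFs and 94.1% to 96.0% in the kidney libraries.

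Of the TET genes, Tet3 stood apart in the MEFs. Tet3 was at 6.87 TPM in Tsc2+/+ and 23.7 TPM in Tsc2-/- MEFs, 3.45-fold higher with an interval of 3.26 to 3.64. Tet2 was at 3.53 and 2.20 TPM, a ratio of 0.622 with an interval of 0.545 to 0.707. Tet1 was at 0.625 and 1.15 TPM, but its 159 and 106 counts correspond to 4.25 and 4.42 CPM, so the TPM ratio of 1.84 was not seen per read. Tet3 made up 62.3% of the summed TET level in Tsc2+/+ MEFs and 87.6% in Tsc2-/- MEFs, and 68.8% to 74.4% in the kidney libraries.

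Set against all genes, 4 members (Dnmt1, Dnmt3a, Uhrf1 and Tet3) were at least 2-fold higher in Tsc2-/- MEFs on the log2(TPM+1) scale, where 10.6% of the 30281 symbols and 25.2% of the 12771 symbols of at least 1 TPM in a MEF library were. Only Rhox5 was at least 2-fold lower, where 2.19% of symbols and 5.18% of those of at least 1 TPM were. These differences have no replicate check and no p-value. All genes together were shifted toward Tsc2-/- MEFs, with a median log2 change of 0.45. After scaling so that the median ratio of 7377 genes of at least 10 TPM was 1, the same members passed, with log2 changes of 1.48 for Dnmt1, 1.53 for Uhrf1, 1.28 for Tet3, 1.07 for Dnmt3a, -0.53 for Dnmt3b, 0.21 for Tet1, -0.76 for Tet2 and -7.25 for Rhox5, and 15.8% of the 12771 symbols were then at least 2-fold higher and 8.21% lower. At least 8-fold, 0 members were higher and 1, Rhox5, was lower, where 3.24% and 0.525% of symbols were. On the CPM scale Dnmt3a dropped out and Tet2, at -1.01, passed as lower. Besides the mesothelial markers, the summed level in Tsc2+/+ and Tsc2-/- MEFs was 0.467 and 85.7 TPM for 10 epithelial markers. Of these 10, 0 and 3 reached 1 TPM. For 12 Sertoli or trophoblast markers it was 29.4 and 112 TPM. Most of that was Clu (15.4 and 60.4 TPM) and Gata4 (8.86 and 39.2 TPM), while Fshr and Cdx2 were at 0 in both. For 10 fibroblast markers it was 6653 and 4232 TPM, led by Vim (3522 and 1118 TPM). The fibroblast markers did not move together. Of 9 with at least 1 TPM, 3 were at least 2-fold higher in Tsc2-/- MEFs and 2 lower, with a median log2(TPM+1) change of 0.58. In libraries of bulk RNA, fewer cells of a kind and less RNA per cell cannot be told apart, and the markers of other cell types and the share of short transcripts that moved with the MEF genotypes were not tested for their part in these differences.

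**Figure D2:**
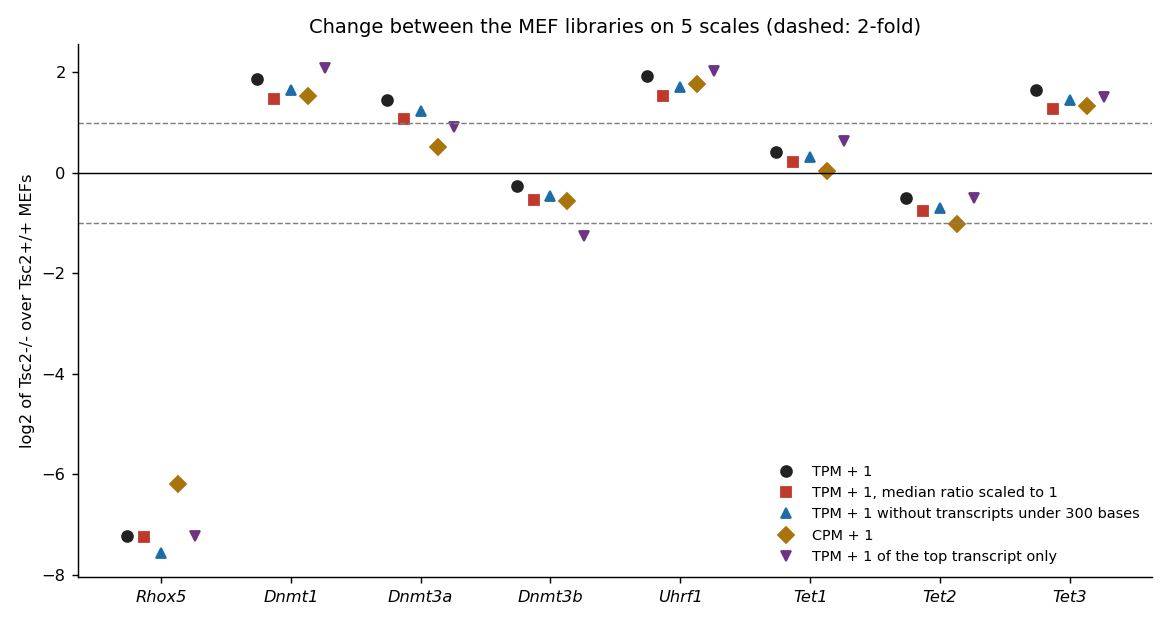
Log2 change of Tsc2-/- over Tsc2+/+ MEFs (vertical axis) of the 8 genes (horizontal axis) on 5 scales, 1 library per genotype and no error bars, with dashed lines at 2-fold. Dnmt1, Uhrf1 and Tet3 lie above 2-fold on all 5 scales, Dnmt3a lies between 0.51 and 1.44, and Rhox5 lies between -6.20 and -7.56.

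Dnmt1 acts during DNA replication, so genes of S phase were set beside it. Of 22 S-phase genes, 14 were at least 2-fold higher and 0 lower in Tsc2-/- MEFs, where 25.2% and 5.18% of symbols of at least 1 TPM were, with a median log2(TPM+1) change of 1.33 against 0.45 for all genes, and after scaling 10 were higher and 1 lower. On the log2(TPM+1) scale the cyclin Ccne1 was at 2.50, the thymidylate synthase Tyms at 2.17 and the flap nuclease Fen1 at 1.99, while 8 did not reach 2-fold, among them the helicase subunit gene Mcm7 at -0.62 (213 and 139 TPM). Of 10 proliferation genes, 9 were at least 2-fold higher, or 5 after scaling, with 1.81 for the mitotic kinase Aurkb, 1.76 for Birc5 and 1.72 for the mitotic kinase Plk1. Dnmt1 and Uhrf1, at 1.86 and 1.92, lay within the range of these genes, and the part of replication in their level was not tested.

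**Figure D3:**
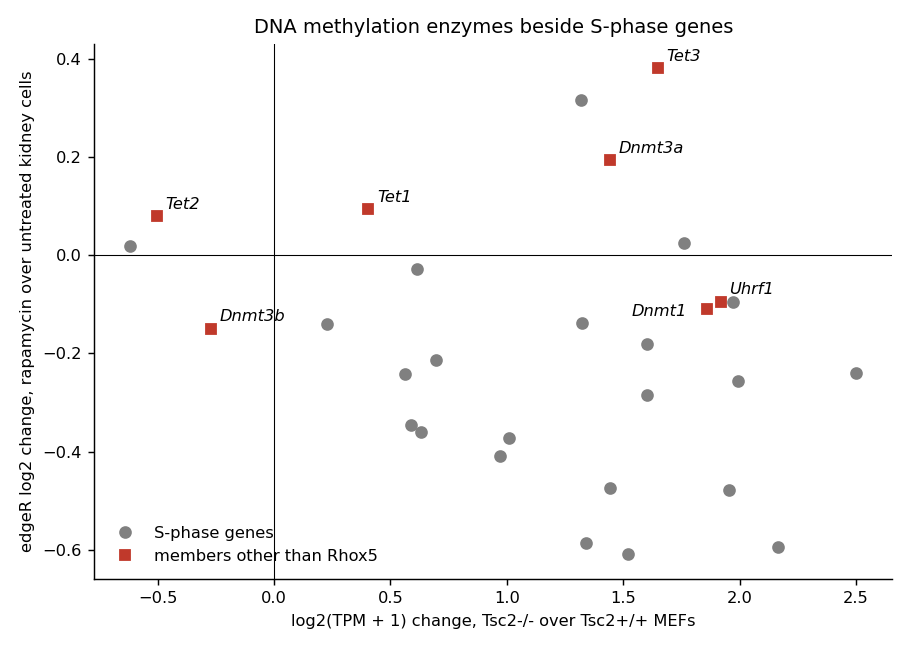
Each grey point is 1 of 22 S-phase genes and each red square is a member other than Rhox5, with the log2(TPM+1) change of Tsc2-/- over Tsc2+/+ MEFs on the horizontal axis and the edgeR log2 change of rapamycin over untreated kidney cells on the vertical axis. Dnmt1 and Uhrf1 lie at 1.86 and 1.92 and at -0.11 and -0.09, to the right among the S-phase genes and closer to 0 on the vertical axis than most of them.

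Of 13 partners of the methylation enzymes with at least 1 TPM, 3 were at least 2-fold higher in Tsc2-/- MEFs and 0 lower, about the 25.2% of symbols higher among all of at least 1 TPM, with a median of 0.54 on the log2(TPM+1) scale. They were Nsd1, a histone H3 lysine 36 methyltransferase, with 3.39, Dnmt3l, a catalytically inactive partner of Dnmt3a, with 2.25, and the chromatin remodeler Hells with 1.03. Dnmt3l was at 2.20 TPM (35 counts) in Tsc2+/+ and 14.2 TPM (104 counts) in Tsc2-/- MEFs, and Hells was under 2-fold after scaling, at 0.64. Of 11 genes of oxidation and base repair, 3 were higher and 0 lower, again about that share, or 2 and 1 after scaling, namely Gadd45g with 2.44, the repair scaffold Xrcc1 with 1.40 and Gadd45a with 1.21.

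Readers of methylated CG had a median log2(TPM+1) change of 0.47 and the methyl donor cycle one of 0.07, against 0.45 for all genes. Of 12 readers, 4 were at least 2-fold higher and 0 lower, or 1 and 0 after scaling, against 25.2% and 5.18% of all symbols of at least 1 TPM and 15.8% and 8.21% after scaling, among them the zinc finger protein Zbtb4 with 2.19, Mbd3 with 1.35 and the remodeler Chd4 with 1.25. Of 9 genes of the methyl donor cycle, 2 were higher and 1 lower, or 0 and 1 after scaling, so the rises lay near that background, among them Mat2a, which makes S-adenosylmethionine, with 1.29, and Ahcy, which clears the product of methyl transfer, with -2.39. For Ahcy the transcript with the highest mean TPM gave 0.18 and CPM gave -0.63. The 20 germline genes known to be silenced by DNA methylation summed to 4.84 TPM in Tsc2+/+ and 13.7 TPM in Tsc2-/- MEFs, and 1 and 5 of them reached 1 TPM. Brdt was at 0.807 and 3.39 TPM, Stag3 at 0.243 and 1.91 TPM and Ddx4 at 0.0368 and 1.22 TPM, with log2(TPM+1) changes of 1.28, 1.23 and 1.10. These 3 reached the minimum of 1 TPM only through the Tsc2-/- library, and 0 of the 5 genes reached 2-fold after scaling.

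Rapamycin was compared with diluent across the MKOC and TJ lines with edgeR's quasi-likelihood test and Benjamini-Hochberg adjustment over 12952 genes, with the line as a covariate. Of the 8 members 1 was called, while 34.9% of all genes tested were, 17.5% higher and 17.4% lower. The median log2 change of the members was -0.01, against 0.02 for all genes. The p-values measure the spread between these libraries of 2 lines.

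Markers of cell type moved in the same fit. Of 8 epithelial markers tested 5 rose with rapamycin and 0 fell, and the summed level of the list was 1698 and 2619 TPM in untreated and treated MKOC cells and 1874 and 2919 TPM in TJ cells. Of 9 fibroblast markers 3 rose and 0 fell, with sums of 4735 and 7612 TPM in MKOC cells and 3630 and 5321 TPM in TJ cells, most of it vimentin, while the collagen gene Col1a1 was at most 0.931 TPM. Of the 3, Col3a1 passed the filter on low counts only through the treated libraries. Of 2 mesothelial markers 1 rose, and of 3 Sertoli or trophoblast markers 1 rose. The share of TPM in transcripts under 300 bases was 4.09% and 7.31% in untreated and treated MKOC cells and 5.69% and 7.998% in TJ cells. The part of these markers and of this share in the rapamycin results was not tested.

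Tet3 was the member called. It was at 3.10 TPM in untreated and 3.98 TPM in rapamycin-treated MKOC cells, and at 3.77 and 5.55 TPM in TJ cells. The treated library was above the untreated library in both lines, but the untreated TJ library and the treated MKOC library were close to each other. The edgeR log2 change was 0.38 (SE 0.13, adjusted p = 0.0387), 1.30-fold with a 95% interval of 1.07 to 1.58. By line, the log2 change of TMM-scaled CPM with 1 added was 0.24 for MKOC and 0.49 for TJ. The call was lost without the line as covariate (adjusted p = 0.250), in DESeq2 (adjusted p = 0.153) and in limma on log2(TPM+1) (adjusted p = 0.131). It was also lost for its most abundant transcript alone (adjusted p = 0.485), in a fit that called 0 of 32552 transcripts. The estimate in these fits was 0.27 to 0.39.

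The maintenance pair did not pass the test. Dnmt1 was at 70.4 and 66.4 TPM in untreated and treated MKOC cells and at 63.2 and 58.1 TPM in TJ cells, with an edgeR log2 change of -0.11 (SE 0.09, adjusted p = 0.399). Uhrf1 was at 146 and 137 TPM in MKOC cells and 125 and 115 TPM in TJ cells, with -0.09 (SE 0.10, adjusted p = 0.490). Both were lower in the treated library of each line on the TPM scale, but per read Uhrf1 in TJ cells was at 219 and 223 CPM, and the 95% intervals of the log2 changes, -0.32 to 0.10 for Dnmt1 and -0.31 to 0.12 for Uhrf1, lie inside a 2-fold change.

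The remaining members were at low levels in the kidney lines and their intervals were wide. Rhox5 had 10 and 5 counts in MKOC cells and 36.5 and 30 in TJ cells, with an edgeR log2 change of -0.38 and a 95% interval of -1.29 to 0.54. Tet2 was at 1.08 and 1.34 TPM in MKOC cells and 1.56 and 1.43 TPM in TJ cells, with 0.08 and an interval of -0.34 to 0.51. Dnmt3a, Dnmt3b, Tet1 and Tet2 had opposite signs in the lines on the TPM scale. Dnmt3a, with an edgeR log2 change of 0.19 and an interval of -0.23 to 0.62, was at 2.39 and 2.17 TPM in MKOC cells and at 1.72 and 3.15 TPM in TJ cells, a TJ ratio of 1.83 with a counting interval of 1.51 to 2.23. Per read the TJ difference was smaller, with 6.82 and 9.14 CPM. Dnmt3b, with -0.15 and an interval of -0.91 to 0.61, was at 0.562 and 0.828 TPM in MKOC cells and at 1.07 and 0.476 TPM in TJ cells, where it had 42 and 31 counts. Tet1, with 0.09 and an interval of -0.89 to 1.07, had 9 and 6 counts in MKOC cells and 19 and 23 in TJ cells. With 1 library per line and treatment the difference between the lines could not be tested.

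**Figure D4:**
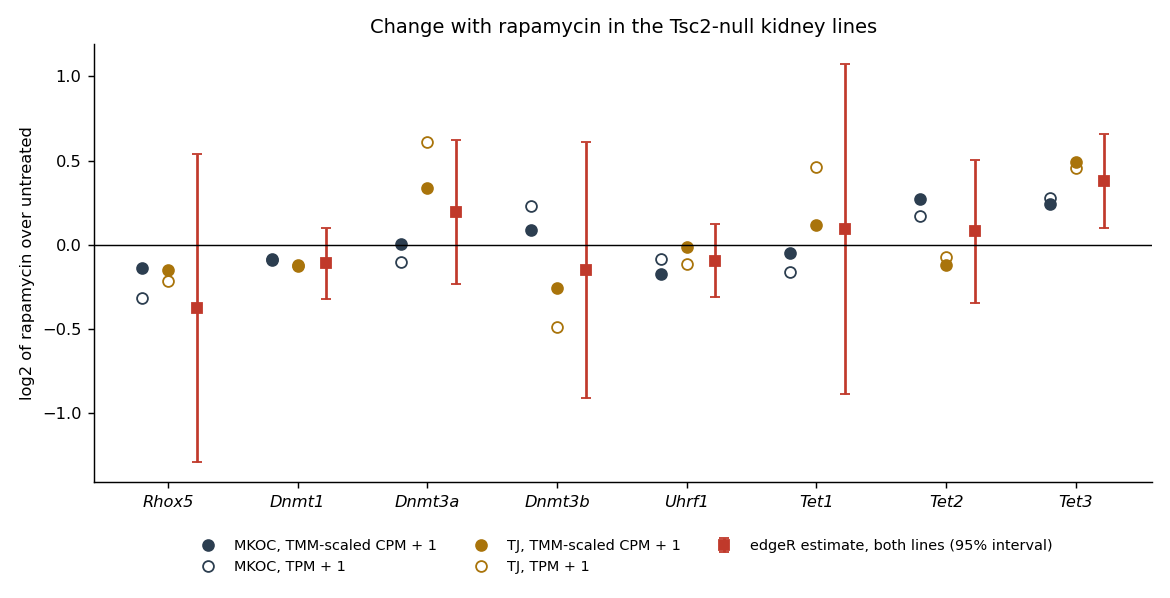
Log2 change of rapamycin over untreated cells (vertical axis) of the 8 genes (horizontal axis), with 1 circle per line and scale (filled for TMM-scaled CPM with 1 added, open for TPM with 1 added) and the edgeR estimate over both lines as a red square with its 95% interval. The interval of Tet3 alone lies above 0, and Dnmt3b, Tet1 and Tet2 lie on opposite sides of 0 in the lines on both scales.

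The lists around the members were read against the 17.5% of all genes called higher and the 17.4% called lower with rapamycin. Of 22 S-phase genes 0 rose and 8 fell, so all calls were falls and their share was above the 17.4% of all genes called lower. The median edgeR log2 change of the 22 was -0.25. Among the falls were the chromatin assembly gene Chaf1b (-0.61, SE 0.11), Tyms (-0.59, SE 0.11) and the ribonucleotide reductase gene Rrm2 (-0.59, SE 0.10). Of 10 proliferation genes 2 fell, which is near the background, the mitotic kinases Aurka (-0.54) and Bub1 (-0.44). Of 12 partners 1 rose and 5 fell. The imprint-protecting zinc finger gene Zfp57 rose by 0.69 (SE 0.18), and Hells (-0.63), its activator Cdca7 (-0.59) and the histone H3 lysine 27 methyltransferase gene Ezh2 (-0.37) fell. These 4 genes had edgeR adjusted p between 0.00105 and 0.0226. Without the line as covariate the calls of Chaf1b, Tyms, Bub1 and all 4 of these partners were lost, and in DESeq2 those of Zfp57 and Ezh2.

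Of 12 genes of oxidation and base repair 1 rose and 3 fell, in all a share near the 34.9% of all genes called: Gadd45b rose by 1.32 (SE 0.15), while Gadd45a fell by 1.43 (SE 0.11), Gadd45g by 0.72 (SE 0.24) and the thymine DNA glycosylase Tdg, which cuts out oxidised methylcytosine, by 0.65 (SE 0.11). Of 11 genes of the methyl donor cycle 0 rose and 6 fell, with a median of -0.41, led by the methyltransferases Gnmt (-1.75, SE 0.36) and Nnmt (-1.02, SE 0.29), which use up S-adenosylmethionine, and by Ahcyl1 (-0.72, SE 0.10). Of 12 readers 4 rose and 1 fell, against 17.5% of all genes called higher and 17.4% called lower. The rises were 0.95 for Zbtb38, 0.69 for Zbtb4 and 0.43 for Chd4 among others, and the deacetylase gene Hdac2 fell (-0.44). Of 4 germline genes tested 1 fell, Taf7l (-3.81, SE 0.59), from 32 to 2 counts in MKOC cells and from 20 to 1 in TJ cells. It passed the filter on low counts only through the untreated libraries, DESeq2 gave it no adjusted p, limma on log2(TPM+1) gave -0.77 (adjusted p = 0.00623), and a filter of 1 TPM in 2 libraries left it out. Without the line as covariate the calls of Gadd45g, Gnmt, Nnmt, Hdac2, Zbtb38 and Chd4 were lost, and in DESeq2 those of Gadd45g and Gnmt. The call of Gadd45g was also lost with upper-quartile scaling (adjusted p = 0.0530).

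The lines themselves were compared in the same fit, from the same 4 libraries. Of the 8 members 1 was called, Rhox5, while 8.79% of all genes tested were, 5.47% higher in TJ cells and 3.32% lower. Rhox5 was 4.33-fold higher in TJ than in MKOC cells (95% interval 2.24 to 8.38), with a log2 difference of 2.12 (SE 0.43, edgeR adjusted p = 0.0144). It passed the filter on low counts only through the TJ libraries, in which it was high, and without the filter the log2 difference was 2.11 with an edgeR adjusted p of 0.00173. The call was lost in DESeq2 (adjusted p = 0.209). It was also lost without treatment in the model (adjusted p = 0.533) and for its most abundant transcript alone (adjusted p = 0.647). Those fits called 0 of 12952 genes and 0 of 32552 transcripts, so the loss there is not particular to Rhox5. Within treatments, its TMM-scaled CPM were 0.341 in MKOC and 1.35 in TJ cells without rapamycin, and 0.218 and 1.11 with it.

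None of the other members passed the threshold. The log2 difference of TJ over MKOC was 1.43 for Tet1 (SE 0.45, edgeR adjusted p = 0.0819), 0.34 for Tet3 (SE 0.13, adjusted p = 0.131) and -0.28 for Uhrf1 (SE 0.10, adjusted p = 0.111). It was -0.19 for Dnmt1, 0.03 for Dnmt3a, -0.18 for Dnmt3b and 0.29 for Tet2.

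Copies of Rhox2 were also higher in TJ cells. The 8 Rhox2 copies summed to 4.88 and 6.30 TPM in untreated and treated MKOC cells and to 17.8 and 18.3 TPM in TJ cells. Of 4 Rhox genes tested besides Rhox5, 3 were called higher and 0 lower: Rhox2d by 2.08 (SE 0.49, edgeR adjusted p = 0.0272), Rhox2g by 1.60 (SE 0.35, adjusted p = 0.0200) and Rhox2h by 1.67 (SE 0.32, adjusted p = 0.0118). Rhox2d, with 5 and 4 counts in MKOC cells, passed the filter on low counts only through the TJ libraries. The 3 are near-identical copies among which reads can be divided, so the copy that carries the RNA is uncertain, the calls of Rhox2d and Rhox2g were lost in DESeq2, and the counts are 52 to 187 for all copies together. The 7 Rhox4 copies summed to 0.690 and 0.958 TPM in MKOC cells and 2.23 and 1.61 TPM in TJ cells.

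**Figure D5:**
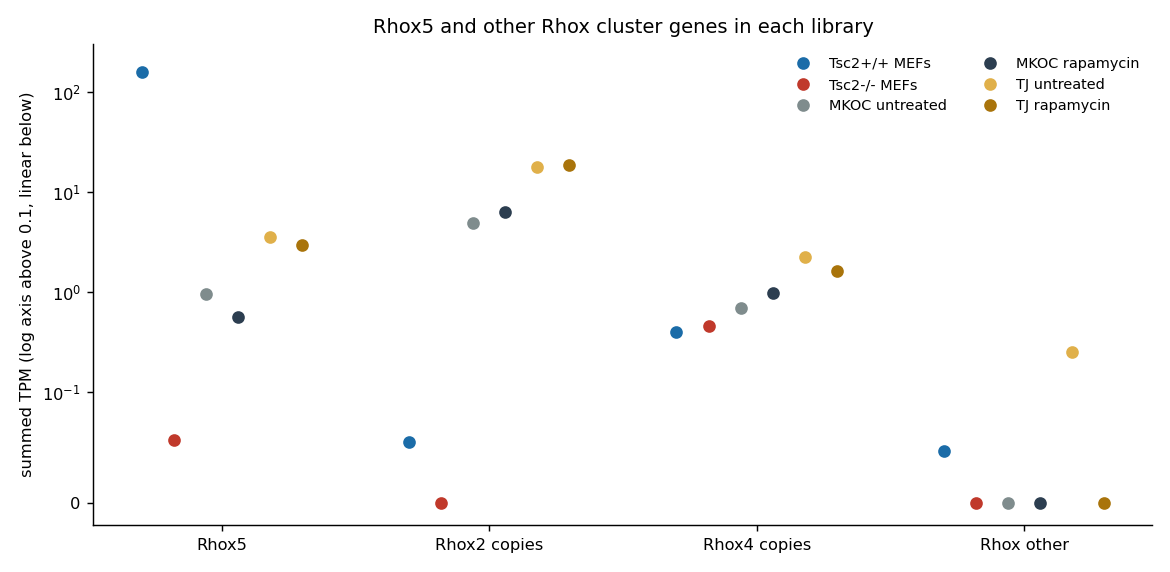
Summed TPM (vertical axis, logarithmic above 0.1 and linear below) of Rhox5, the 8 Rhox2 copies, the 7 Rhox4 copies and 10 other Rhox genes (horizontal axis), 1 point per library. Rhox5 is highest in Tsc2+/+ MEFs at 158 TPM, while the Rhox2 copies are highest in TJ cells at 17.8 and 18.3 TPM and near 0 in both MEF libraries.

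Of 12 methylation partners 1 was called between the lines, a share near the 8.79% of all genes called. It was Zfp57, lower in TJ cells by 0.99 on the log2 scale (SE 0.18, edgeR adjusted p = 0.00930). Of 12 oxidation and repair genes 2 were higher, Idh1, whose product supplies the cofactor of the TET enzymes, by 0.95 (SE 0.10) and Gadd45a by 0.46 (SE 0.11). Of 12 readers 1 was higher, Zbtb38, by 0.53 (SE 0.14), where 5.47% of all genes were. The methyl donor cycle, germline and proliferation lists held 0 calls among 11, 4 and 10 genes tested. Of 22 S-phase genes 5 were lower in TJ cells, among them Ccne1 (-0.48), Ccne2 (-0.46) and the helicase subunit gene Mcm7 (-0.44), and 0 were higher, where 3.32% and 5.47% of all genes were. The calls of Ccne1, Ccne2 and Zbtb38 were lost in DESeq2 and in limma, that of Zbtb38 also with RLE size factors (adjusted p = 0.0524), and no gene was called without treatment in the model. Of the marker lists 1 of 9 fibroblast markers, Pdgfrb, which passed the filter only through the TJ libraries, was higher in TJ cells and 2 were lower. In the other marker lists 1 of 8 epithelial and 1 of 3 Sertoli or trophoblast markers were higher, and 1 of 2 mesothelial markers was lower. The shares of all genes were 5.47% higher and 3.32% lower.

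The division of reads among transcripts, an estimate where reads fit several of them, differed between libraries for some members. Transcripts from the internal Dnmt3a start (chromosome 12, positions 3891728 and 3891744 on GRCm38, both inside the internal window shown above) held 5.73% of Dnmt3a counts in Tsc2+/+ MEFs, 17.0% in Tsc2-/- MEFs and 6.83% to 11.4% in the kidney libraries. Those from the main start, between positions 3807030 and 3807160, held 93.8%, 81.9% and 76.3% to 84.0%. For Tet1, the transcript from position 62899118 of chromosome 10 starts farthest upstream among the 6 measured. It held 97.8% of counts in Tsc2+/+ MEFs, 69.9% in Tsc2-/- MEFs and 0 in the kidney libraries, where totals were 6 to 23 counts.

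For Dnmt1, the transcript that starts at position 20952979 of chromosome 9, the upstream start shown above, held 47.3% to 57.5% of counts, and the one that starts at position 20959888, whose window holds 2 CG, held 41.8% to 52.2%. The transcript from the CG-rich start at position 20952623 held 0.256% to 1.22%. Each of these Dnmt1 transcripts holds 39 exons and they share their end, so reads can fit more than 1 and the shares do not measure the use of a start. For Uhrf1, transcripts that start at positions 56303321 and 56303400 of chromosome 17, by the upstream start shown, held 61.5% to 77.6% of counts. Those that start between positions 56304313 and 56304407, by the CG-rich start, held 36.7% and 37.4% of counts in untreated and 24.3% and 21.0% in rapamycin-treated MKOC and TJ cells, and 31.0% and 32.8% in the MEFs. This share was lower in the treated library of both lines, while total Uhrf1 did not pass the test.

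Dnmt3b was divided among transcripts of nearly the same start, and unevenly across libraries. ENSMUST00000103151 held 52.3% of its counts in Tsc2+/+ MEFs but 0 in the Tsc2-/- library, in which ENSMUST00000109772 held 65.4%. In untreated cells, ENSMUST00000103151 held 57.8% in MKOC, and ENSMUST00000109773 held 87.6% in TJ, where Dnmt3b had 42 counts in all. Kallisto estimates these shares from reads that fit several transcripts, and they were not tested.

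The genes most like each of 3 members were found by the Pearson correlation of log2(TPM+1) over the 6 libraries among 13912 genes, as a description. For Rhox5 they were Phf11a, Wwp2, Gm2042, Gm7582 and Dmtf1, with r of 0.988 to 0.997. Each was highest in Tsc2+/+ MEFs, with 2.83 TPM for Phf11a, 53.3 TPM for the ubiquitin ligase gene Wwp2 and 58.1 TPM for Dmtf1, and the correlation rests on that library. For Dnmt1 they were Ankrd9, Crkl, Xrcc2, Cd63 and Slc38a1 (r of 0.997 to 0.999), lowest in Tsc2+/+ MEFs, and for Dnmt3b they were Asph, Trmt13, Sspo, Atg4c and Clcc1 (r of 0.983 to 0.995), higher in the MEFs than in the kidney lines.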

How the data were processed

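Poly(A)-selected stranded libraries of 6 mouse cultures were sequenced as paired-end reads. The authors trimmed the reads (Trimmomatic 0.32, per the study's methods) and ran Kallisto, whose version is not given in the sources used here. They deposited estimated counts and TPM for 88198 transcripts. Transcript identifiers are mouse Ensembl ones, although hg38 is the reference given in the study's methods. From the deposited table of fold changes (a ratio of the MEF libraries) nothing but gene symbols was taken. Estimated counts and TPM were summed per symbol, and the 0.372% to 0.468% of counts without a symbol were left out. Members and lists were chosen with earlier results of these data known. All 8 members are named, and of each list of methylation, Rhox, germline and cell cycle genes up to 3 genes with the largest rise and 3 with the largest fall among those called. Lists of cell type markers are given by counts and sums, with single markers named. An item of these lists is not reported here.

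MEFs (1 library per genotype) were compared by log2(TPM+1), with exact conditional intervals of the counts. Kidney counts, rounded to whole numbers, were filtered (filterByExpr), scaled (TMM) and tested with edgeR 4.0.16 (quasi-likelihood, line and treatment as terms, Benjamini-Hochberg, 0.05). Libraries pair by the line that the labels name, and the deviations of a line's libraries from the treatment means correlated at 0.56 over 12952 genes. Alternatives were other pseudocounts, scalings, filters and tools (limma 3.58.1, DESeq2 1.42.0), run in R 4.3.3 and Python 3.11.15. Promoter windows are RefSeq's on GRCm38.p6, and transcript starts are GENCODE's on GRCm38.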

Additional observations from a re-analysis of the deposited data

Results flagged for a closer look

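Dnmt3a, Dnmt3b, Tet1 and Tet2 had opposite signs of change with rapamycin in the MKOC and TJ lines on the log2(TPM+1) scale, and the differences between the lines were not tested, as each line has 1 library per treatment. The change in TJ minus that in MKOC was 0.71 for Dnmt3a (-0.10 in MKOC and 0.61 in TJ), -0.72 for Dnmt3b (0.23 and -0.49), 0.62 for Tet1 (-0.16 and 0.46) and -0.25 for Tet2 (0.17 and -0.08). On TMM-scaled CPM with 1 added, the changes in MKOC and TJ were 0.00 and 0.34 for Dnmt3a, 0.09 and -0.26 for Dnmt3b, -0.05 and 0.11 for Tet1 and 0.27 and -0.12 for Tet2, so that the difference was -0.34 for Dnmt3b and 0.16 for Tet1. The counting interval of the TPM ratio included 1 for Dnmt3a (0.739 to 1.11) and Dnmt3b (0.923 to 2.34) in MKOC and for Tet2 (0.764 to 1.10) in TJ. For Tet1 it was 0.0542 to 0.582 in MKOC and 2.01 to 7.51 in TJ, but on 9 and 6 counts and on 19 and 23 counts. Per read the Tet1 differences were small, with 0.299 and 0.262 CPM in MKOC and 0.704 and 0.868 CPM in TJ.

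ENSMUST00000185127, a transcript of 754 bases that the deposited table gives no symbol, was left out of the gene sums and carried signal. It was at 158 TPM in Tsc2+/+ MEFs, 0.615 TPM in untreated and 0.560 TPM in rapamycin-treated MKOC cells, and 3.54 and 2.90 TPM in untreated and treated TJ cells, above the 0.171 to 0.336 TPM that 3 counts are worth in these libraries. Its values equal those of the Rhox5 transcript ENSMUST00000184866 in all 6 libraries.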

How the results depend on the processing

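Between the MEFs, a pseudocount of 0.1 gave 5041 genes at least 2-fold higher and 1623 lower in Tsc2-/- MEFs, against 3222 and 662 with 1, a pseudocount of 5 gave 1830 and 309, and scaling to a median ratio of 1 gave 2019 and 1048. A limit of 8-fold gave 414 and 67, with 0 members higher in place of 4. CPM gave 1014 genes lower, and 2 members lower in place of 1 (Tet2 with Rhox5), and the transcript with the highest mean TPM also gave 2 (Dnmt3b with Rhox5). Ahcy changed sign for that transcript (0.18), and the cause was not tested.

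For rapamycin, 4526 genes were called with edgeR and 1275 with no replicate block, that is without the pairing by line, and 0 at the level of transcripts, where 5743 had an unadjusted p under 0.05. The 1 member called became 0 with no replicate block, in limma, in DESeq2 and for transcripts. For transcripts Dnmt3a changed to -0.41 and Uhrf1 to 0.075. Between the lines, 1139 genes were called, 1753 with no filter, 605 in limma, 622 in DESeq2, 0 without treatment in the model (702 at an unadjusted p under 0.05) and 0 for transcripts (2400), and the 1 member called became 0 in the latter 3. Dnmt3b changed to 0.050 in limma.

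Without transcripts under 300 bases the summed TPM of the members was 274 in place of 217 in Tsc2+/+ MEFs, 209 in place of 194 in Tsc2-/- MEFs, 234 and 229 in place of 224 and 212 in untreated and treated MKOC cells, and 212 and 204 in place of 200 and 187 in TJ cells. Of 81 recomputed counts and sums 49 stayed within 1.5 times their value, or for sums within the counting interval. MEF differences have no replicate, and counts of Rhox5, Tet1 and Dnmt3b limit their precision in the kidney lines.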
